A study of Saccharomyces cerevisiae with 6 samples.

Results

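Deletion of GPR1 was compared with wild type in budding yeast, on 4 of the 6 arrays of the series. The members of the comparison were 2 arrays of a gpr1 deletion strain and 2 arrays of the wild-type strain, taken by their sample labels. A further 2 arrays of a gpa2 deletion strain entered the same fit, where they served to estimate the spread between arrays and to set the gpr1 deletion beside its partner mutant. All strains were of the W303-1a background, a haploid laboratory strain of mating type a. Each array gave a single-colour reading of total RNA. Growth medium, glucose level, growth phase, deletion marker and number of clones are not given in these sources. Nothing in the labels tells whether the arrays of a strain came from separate cultures. The p-values therefore measure only how these samples spread, and that spread may be technical.

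Gpr1 is a G-protein-coupled receptor in the plasma membrane that responds to glucose. It acts through the G-protein alpha subunit Gpa2 to stimulate adenylate cyclase, and the cAMP that is made releases the catalytic subunits of protein kinase A from their inhibitor Bcy1. The kinase promotes ribosome synthesis and growth, and it restrains the stress factors Msn2 and Msn4, reserve carbohydrate storage and respiration. The title of the study places this receptor in the link between glucose and cell size.

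The deposited values were probe-set intensities, and after quantile normalisation they are given here as normalised intensities. Of 9335 probe sets, 6956 were bright enough to test. They represent 5115 genes, each described by its brightest probe set unless stated. A log2 change is the mean of the gpr1 deletion minus the mean of wild type, with its standard error (SE) from limma and n = 2 arrays per group. A probe set was called where limma's adjusted p (Benjamini-Hochberg, over all 6956) was under 0.05. The words rose and fell are kept for those calls, and other changes are given as values. Values below an intensity of 8.97 were raised to that floor before the log2. The arrays hold RNA of whole cultures, so that fewer cells of a kind and less RNA per cell cannot be told apart.

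Across probe sets Pearson's r was 0.969 between the gpr1 deletion arrays and 0.939 between the wild-type arrays. The wild-type arrays stood further apart from each other: 9 probe sets read over 16-fold higher on wild-type array 1 and 7 on wild-type array 2, against 1 and 4 between the gpr1 deletion arrays. SPT15 has control probe sets at its 3' and 5' ends, whose ratio reflects RNA quality. The ratio was 4.46 and 4.83 in the gpr1 deletion, against 3.16 and 10.3 in wild type. That of ACT1 was 1.35 and 1.53 in the gpr1 deletion, against 1.26 and 1.29 in wild type. Markers of mating type a had summed normalised intensities of 27167 and 28498 in the gpr1 deletion, against 24412 and 18815 in wild type, and 6 of the 7 were bright enough to test. The 4 markers of mating type alpha summed to 651 and 645 in the gpr1 deletion, against 645 and 815 in wild type, with 0 of them at the floor. Of 10 genes of sporulating diploids, 2 lay at the floor on all 4 arrays, and the sums were 679 and 688 in the gpr1 deletion, against 715 and 790.5 in wild type.

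The deleted gene was read first, as a check of the labels. GPR1 (YDL035C) had normalised intensities of 4.2 and 3.2 in the gpr1 deletion, against 714 and 947 in wild type. It lay at the floor on both gpr1 deletion arrays, and it was at least 91.7-fold lower there (log2 change -6.52 ± 0.32, limma adjusted p = 3.88e-05). The floor sets the size of this fall, and a floor at the 25th percentile gave a log2 change of -3.45.

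The other components of the receptor module did not pass the test. Over its 9 tested genes, GPR1 included, the arrays did not overlap for 2 with the gpr1 deletion higher and 3 with it lower. These shares were 22.2% and 33.3%, against 17.6% and 14.3% of all genes. GPA2 read 1126 and 1408 in the gpr1 deletion, against 1592 and 1708 in wild type (log2 change -0.39 ± 0.30). GPB1, which encodes a kelch-repeat partner of Gpa2 that restrains the pathway, read 177 and 185 in the gpr1 deletion, against 273 and 310.1 in wild type (log2 change -0.69 ± 0.29, adjusted p = 0.708). GPG1, named for the proposed gamma subunit of this G protein, read 801 and 851 in the gpr1 deletion, against 498 and 429.7 in wild type (log2 change 0.84 ± 0.22, adjusted p = 0.331). GPB1 was lower and GPG1 higher on both gpr1 deletion arrays than on either wild-type array. The GPB1 paralogue GPB2 had a log2 change of 0.23, RGS2, an accelerator of GTP hydrolysis by Gpa2, had a log2 change of 0.29, PLC1, the phospholipase C that binds Gpr1, had a log2 change of 0.22, and ASC1, a beta-like partner of Gpa2, had a log2 change of 0.01.

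Downstream, the phosphodiesterases that break down cAMP differed in sign. PDE1, the low-affinity enzyme, read 634 and 672 in the gpr1 deletion, against 1007 and 995 in wild type (log2 change -0.62 ± 0.25). PDE2, the high-affinity enzyme, read 2191 and 2119 in the gpr1 deletion, against 1535 and 1689 in wild type (log2 change 0.42 ± 0.20). Neither passed (adjusted p = 0.708 and 0.818). The log2 change was 0.41 for RAS1 and 0.27 for RAS2, the small GTPases that also activate adenylate cyclase, and 0.18 for CYR1, adenylate cyclase itself. The kinase subunits TPK2 and TPK3 had log2 changes of -0.11 and 0.16, and the regulatory subunit BCY1 had a log2 change of 0.05. The stress factors that the kinase restrains read 814 and 966 in the gpr1 deletion, against 678 and 485 in wild type for MSN2 (log2 change 0.63 ± 0.25), and 726 and 712 in the gpr1 deletion, against 498 and 459 in wild type for MSN4 (log2 change 0.59 ± 0.27). Their arrays did not overlap and neither passed (adjusted p = 0.708 and 0.771).

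Over the whole comparison 16 of 6956 probe sets were called, which is 0.23%, with 6 higher (0.0863%) and 10 lower (0.144%) in the gpr1 deletion. An unadjusted p under 0.05 was reached by 462 probe sets (6.64%). Among the 5115 genes taken by their brightest probe set, 5 rose (0.0978%) and 7 fell (0.137%). The arrays of the groups did not overlap, with the gpr1 deletion higher, for 17.6% of these genes, and with it lower for 14.3%. The count of calls moved with single arrays: it was 7 and 5 without gpr1 deletion array 1 or 2, 8 without either gpa2 deletion array, and 53 and 31 without wild-type array 1 or 2. With no filter on dim probe sets, GPR1, HSP12, both PRM7 probe sets and 3982_at were still called and the others of the 16 were not.

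**Figure D1:**
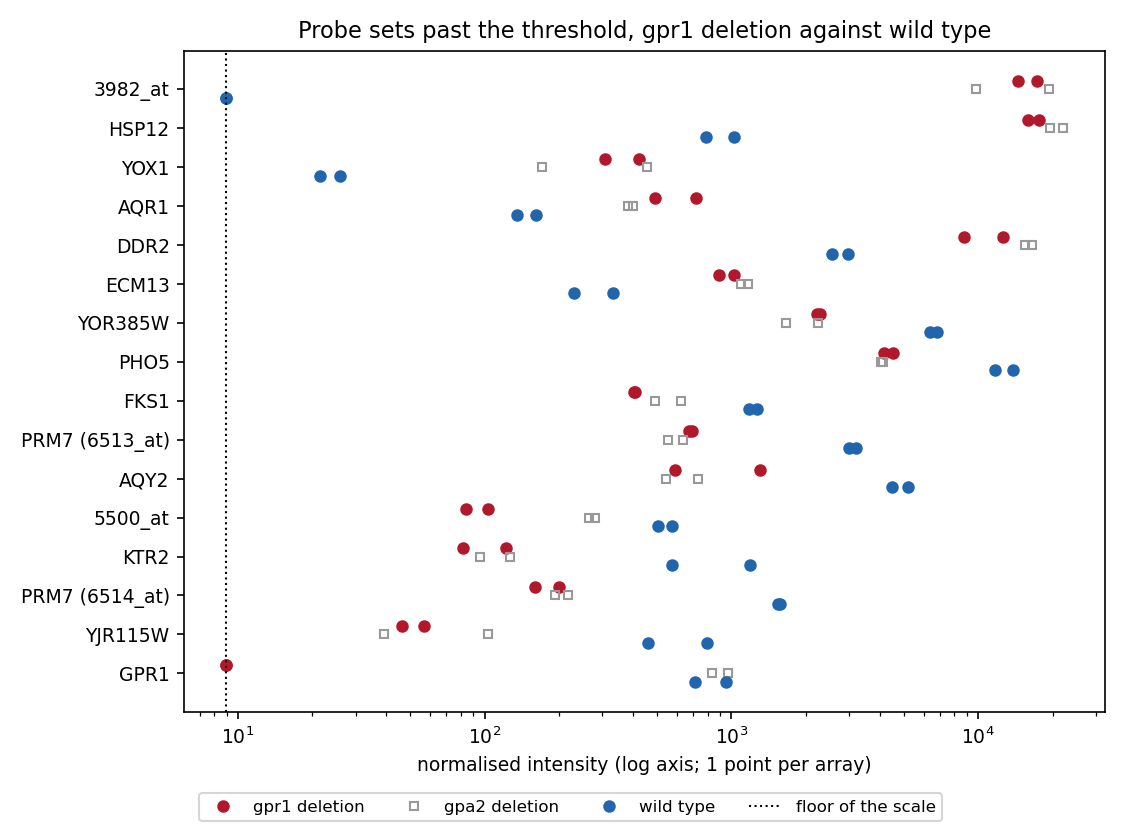
Normalised intensity (log axis) of the 16 called probe sets on each array, 1 point per array, with the gpr1 deletion, the gpa2 deletion and wild type in separate rows and colours. The gpr1 deletion points lie apart from the wild-type points in every row, and the rows were chosen by their calls. GPR1 in the gpr1 deletion and 3982_at in wild type lie at the floor (dotted line).

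Of the 5 genes that rose, HSP12 had the largest log2 change. HSP12, a small protein of membranes and the cell wall that is made under stress, read 15862 and 17660.0 in the gpr1 deletion, against 791 and 1020.2 in wild type. This was 18.6-fold higher (log2 change 4.22 ± 0.21, limma adjusted p = 3.88e-05), and HSP12 was called whichever of the 6 arrays was left out. DDR2, another stress-induced gene, read 8729 and 12573 in the gpr1 deletion, against 2956 and 2559 in wild type (log2 change 1.93 ± 0.23, adjusted p = 0.0186). AQR1, a plasma membrane exporter of acids and amino acids, read 718 and 489 in the gpr1 deletion, against 135 and 161 in wild type (log2 change 2.00 ± 0.29, adjusted p = 0.0475). YOX1, whose homeodomain protein represses genes of late mitosis and early G1 phase, read 420.5 and 307 in the gpr1 deletion, against 21.5 and 26 in wild type (log2 change 3.93 ± 0.50, adjusted p = 0.0284). The wild-type readings of YOX1 lie near the floor, and raising that floor to the 25th percentile gave it a log2 change of 2.26 (adjusted p = 0.138).

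The paralogues ECM13 and YJR115W, a pair of unknown function kept from the yeast whole-genome duplication, moved in opposite directions. ECM13 read 893 and 1019 in the gpr1 deletion, against 231 and 330.5 in wild type, and rose (log2 change 1.79 ± 0.25, adjusted p = 0.0459). YJR115W read 46.2 and 57 in the gpr1 deletion, against 459 and 797 in wild type, and fell (log2 change -3.56 ± 0.53, adjusted p = 0.0497). The groups do not overlap for either gene. The call of ECM13 was lost when any of 4 arrays was left out in turn and that of YJR115W when any of 3 was.

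The genes that fell had mixed roles. KTR2, a mannosyltransferase that extends glycans on secreted proteins, read 122 and 81.8 in the gpr1 deletion, against 1185 and 577 in wild type (log2 change -3.05 ± 0.42, adjusted p = 0.0418). PHO5, the secreted acid phosphatase, read 4528 and 4136 in the gpr1 deletion, against 11666 and 13802 in wild type (log2 change -1.55 ± 0.19, adjusted p = 0.0252). YOR385W, of unknown function, read 2231 and 2285 in the gpr1 deletion, against 6376 and 6782 in wild type (log2 change -1.54 ± 0.22, adjusted p = 0.0459). All of these were lower on both gpr1 deletion arrays than on either wild-type array. A probe set of FKS1, a catalytic subunit of glucan synthase, fell as well: 2837_s_at read 408 and 403 in the gpr1 deletion, against 1269.7 and 1176 in wild type (log2 change -1.59 ± 0.23). The brightest FKS1 probe set had a log2 change of -0.20 and its groups overlapped, so the call holds for 1 probe set and not for the gene. Further FKS1 probe sets, with log2 changes of -1.29, -0.99 and -0.95, were also lower on both gpr1 deletion arrays than in wild type but were not called. The groups overlapped for the remaining ones, with log2 changes of -0.14, -0.02 and -0.14.

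AQY2, a water channel, read 589 and 1303 in the gpr1 deletion, against 4455 and 5209.7 in wild type (log2 change -2.46 ± 0.36, adjusted p = 0.0475). YLL053C lies beside it, and in other yeast strains both are parts of a single aquaporin gene. YLL053C read 1115 and 2245 in the gpr1 deletion, against 6094 and 7409.9 in wild type (log2 change -2.09 ± 0.33, adjusted p = 0.0639). For each of the pair gpr1 deletion array 2 read higher than array 1, and both stayed below wild type.

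PRM7, known as induced by mating pheromone, was called by both of its probe sets. 6514_at read 200.1 and 161 in the gpr1 deletion, against 1575 and 1542 in wild type (log2 change -3.12 ± 0.25, adjusted p = 0.00174). 6513_at read 675 and 691 in the gpr1 deletion, against 2995 and 3205 in wild type (log2 change -2.18 ± 0.21, adjusted p = 0.00587). In the gene order of the R64 assembly PRM7 lies 3 genes from GPR1 on chromosome IV. BSC1, between PRM7 and PUS9, was too dim over all arrays to be tested. It read 5.07 and 4.62 in the gpr1 deletion, both at the floor, against 590.4 and 684 in wild type, and was at least 70.9-fold lower. In the gpa2 deletion BSC1 read 5.5 and 6 and the PRM7 probe set 6514_at read 193 and 217, where GPR1 read 832 and 964. Whether the deletion of GPR1 bears on these nearby genes was not tested.

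The other genes around GPR1 were not called. PUS9, a pseudouridine synthase next to GPR1, read 318 and 249 in the gpr1 deletion, against 404 and 364 in wild type (log2 change -0.45 ± 0.27). SLM3, a mitochondrial tRNA-modifying enzyme next on the other side, had a log2 change of -0.08, and the further genes DBP10, PRP9, ARP2 and MPS1 on that side had log2 changes of -0.27, -0.13, 0.07 and 0.13. Beyond PRM7, NAT1 had a log2 change of -0.43 and SIR2, the silencing histone deacetylase, had a log2 change of -0.64 ± 0.24 (adjusted p = 0.689). PUS9, NAT1 and SIR2, all on the side of PRM7, were lower on both gpr1 deletion arrays than in wild type. The groups overlapped for the 5 genes on the other side. In the gpa2 deletion PUS9 read 304 and 287 and NAT1 read 797 and 916, which was also below both wild-type arrays (1167 and 1216 for NAT1). SIR2 read 505 and 516 in the gpa2 deletion, against 474 and 595 in wild type, and overlapped.

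Probe sets without a gene name were called as well. 3982_at read 17231 and 14484 in the gpr1 deletion and 19317 and 9798 in the gpa2 deletion, against 2.41 and 1.01 in wild type, where both readings lie under the floor. Its gpr1 deletion level was higher by at least 1762-fold (limma adjusted p = 1.49e-06). 5500_at read 103 and 84.2 in the gpr1 deletion and 265 and 281 in the gpa2 deletion, against 506 and 575 in wild type (log2 change -2.53 ± 0.29, adjusted p = 0.0166).

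**Figure D2:**
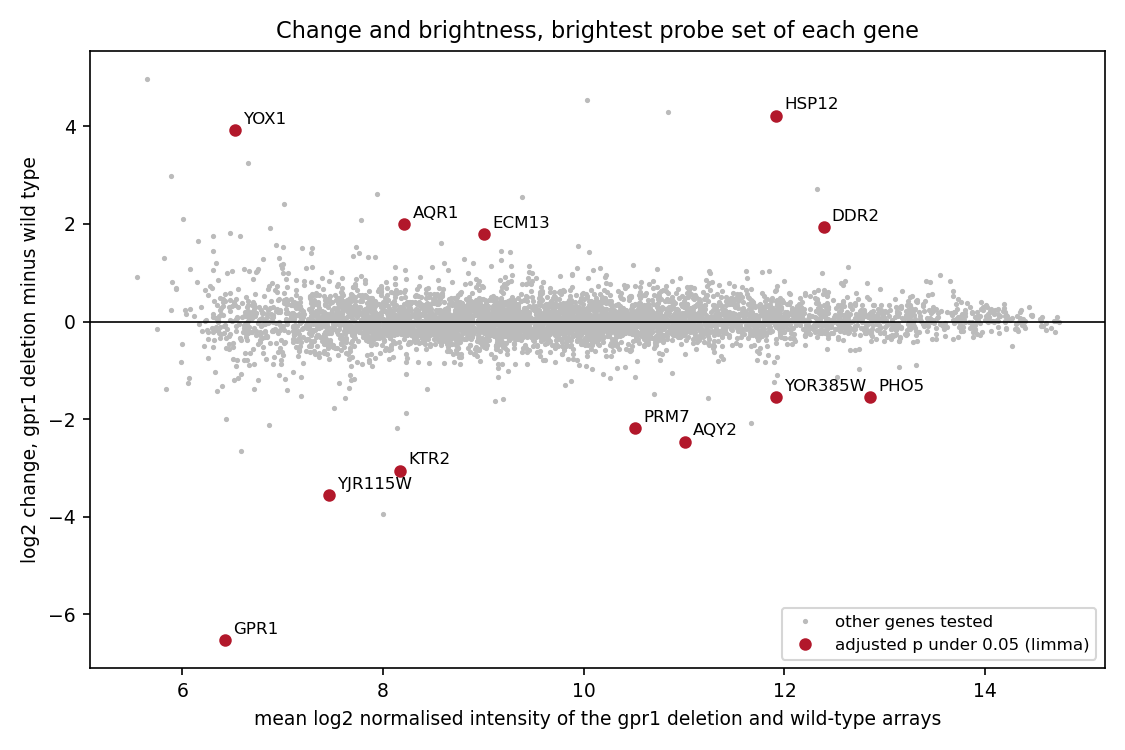
Log2 change, gpr1 deletion minus wild type, of the brightest probe set of each of the 5115 genes against its mean log2 normalised intensity over the 4 arrays compared, with called genes in red. Most genes lie near 0, the 12 called genes stand at log2 changes from -6.52 to 4.22, and some grey points as far out, such as FMP33 at 3.24 and PIB1 at 2.42, are genes that were not called.

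Large differences that did not pass include genes read near the floor in wild type or with wide spread. FMP33, a mitochondrial protein of unknown function, read 222 and 433 in the gpr1 deletion, against 22.4 and 47.8 in wild type (log2 change 3.24 ± 0.51, adjusted p = 0.0594). CDC6, which loads the replicative helicase at origins, read 192 and 142 in the gpr1 deletion, against 49.4 and 6.67 in wild type (log2 change 2.97 ± 0.76, adjusted p = 0.313), with wild-type array 2 at the floor. PIB1, a ubiquitin ligase of endosomes and the vacuole, read 323 and 275 in the gpr1 deletion, against 48.4 and 64.5 in wild type (log2 change 2.42 ± 0.37, adjusted p = 0.0536). These genes were higher on both gpr1 deletion arrays than in wild type. On the low side YDL241W, of unknown function, read 118 and 35.8 in the gpr1 deletion, against 863 and 1166 in wild type (log2 change -3.94 ± 0.63, adjusted p = 0.0639). RTA1, which gives resistance to aminocholesterol, read 110.0 and 87.8 in the gpr1 deletion, against 326 and 347 in wild type (log2 change -1.78 ± 0.35). Further genes of the 15 largest differences by rule were YLL056C (log2 change -2.00), YMR316C-A (log2 change -1.86) and YPR145C-A (log2 change -1.57) on the low side, and the noncoding locus YNCL0007W (log2 change 1.75) on the high side.

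Gene lists were described by counts of genes past each mark and by their median log2 change, which can be read beside one of 0.02 over all 5115 genes. Of all genes, 52.5% had a positive change, 4.16% had an unadjusted p under 0.05 and were higher, and 2.52% were lower at that mark. A negative change was read for 47.5%. Counts of genes whose arrays lay apart can be read beside 17.6% of all genes with the gpr1 deletion higher and 14.3% with it lower. Many list medians rest on single arrays: when 1 gpr1 deletion or wild-type array was left out in turn, 46 of 50 moved by over 1.5 times. The exceptions were the mitochondrial ribosome, the nuclear respiratory chain, and the lists of small stress proteins and of G1 and S cyclins. The former list also holds enzymes and wall genes, and the latter also holds mitotic cyclins. Of 26 lists with a median within 0.1 of 0, 17 changed sign, and their medians ran from -0.30 to 0.29.

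**Figure D3:**
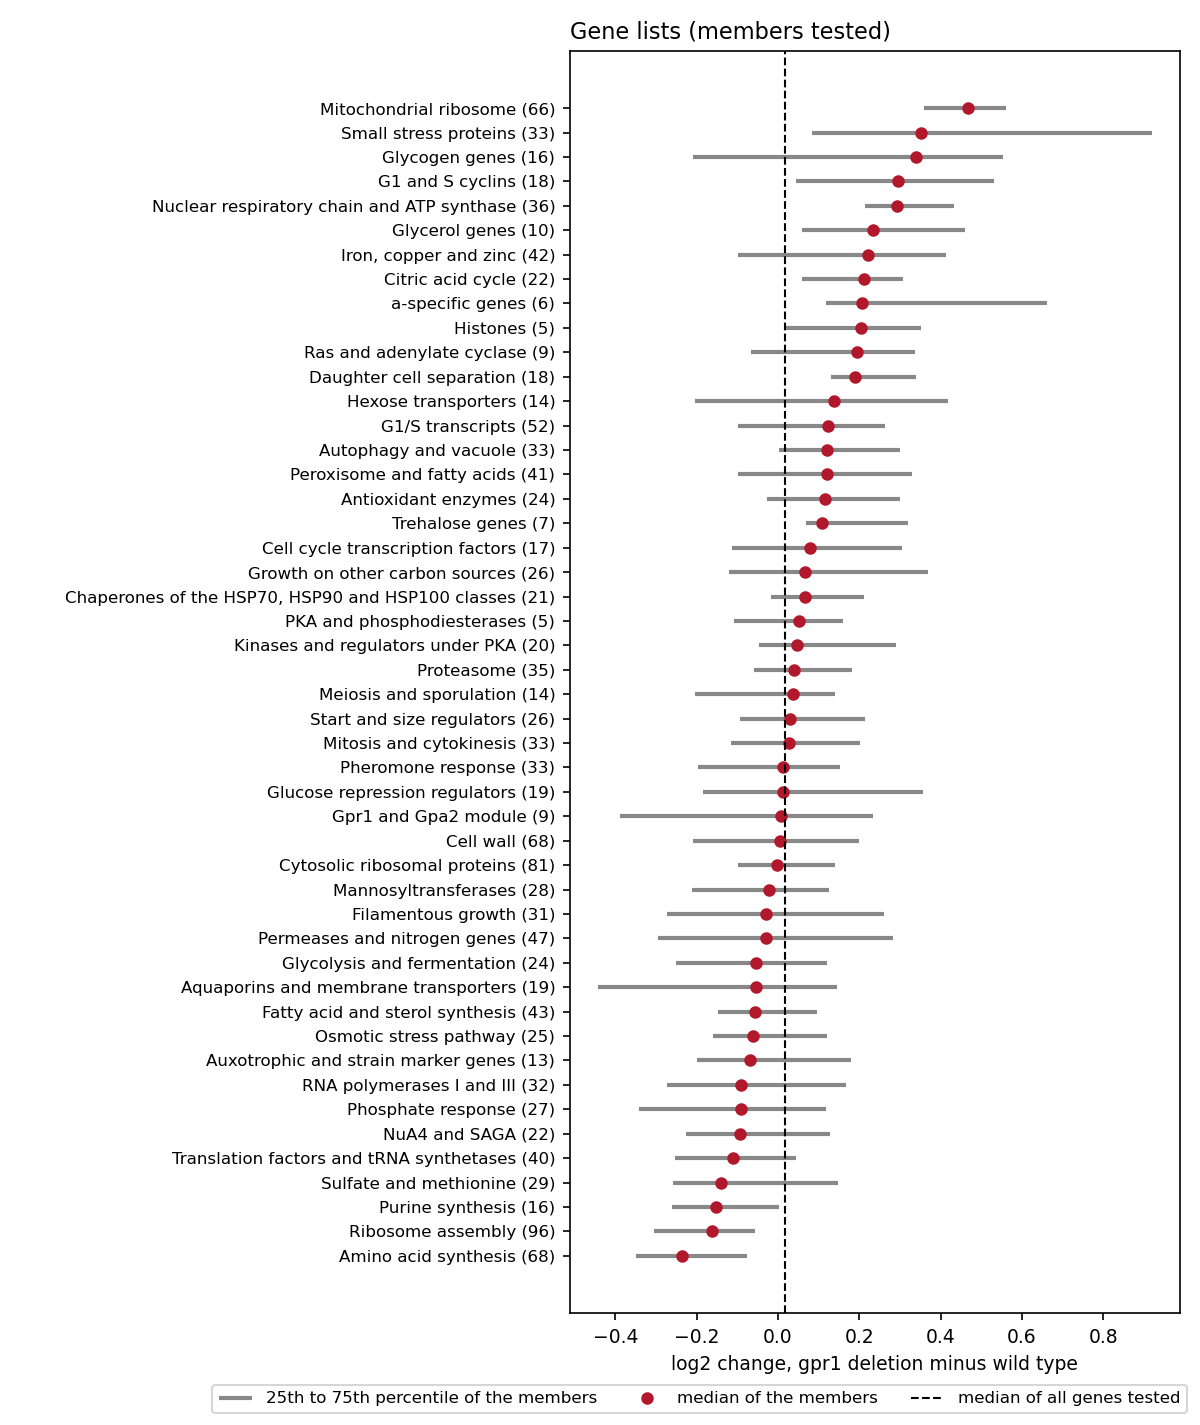
Median log2 change, gpr1 deletion minus wild type, of each gene list with at least 5 tested members (points), with the 25th to 75th percentile of the members (bars) and the median of all genes (dashed line). The mitochondrial ribosome has the highest median, 0.47, and amino acid synthesis the lowest, -0.24.

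A list of stress genes, with the called pair HSP12 and DDR2 among its members, read high. Of 41 genes listed as small stress proteins 33 were tested, 2 rose, 25 were positive, and the median was 0.35. The list also holds enzymes such as GAD1, the decapping regulator DCS2 and the wall genes CWP1 and YGP1. Its median is therefore not of small stress proteins alone. The arrays lay apart with the gpr1 deletion higher for 17 and lower for 3. HSP26, a small heat shock chaperone, read 702 and 1217 in the gpr1 deletion, against 294 and 264 in wild type (log2 change 1.73 ± 0.29, adjusted p = 0.073). MSC1, linked to meiotic recombination, read 1480.2 and 2072 in the gpr1 deletion, against 741 and 566 in wild type (log2 change 1.44 ± 0.25, adjusted p = 0.098). GAD1, glutamate decarboxylase, had a log2 change of 1.26, and DCS2, a regulator of mRNA decapping, had a log2 change of 1.20. HSP30, a plasma membrane protein that restrains the proton pump and is named here after its values were seen, had the other sign, with 4631 and 5159 in the gpr1 deletion, against 10756 and 8630.0 in wild type (log2 change -0.98 ± 0.25, adjusted p = 0.303).

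A list of large chaperones and related genes read closer to wild type. Over its 21 tested genes the median was 0.07 and 0 were called. Without wild-type array 1 or 2 the median was 0.00 and 0.26. Beside chaperones of the HSP70, HSP90 and HSP100 classes the list holds HSP60, HSP10, co-chaperones such as YDJ1 and STI1, and the factor HSF1. It also holds SBP1, an RNA-binding protein, so its median is not of those classes alone. HSP78, the mitochondrial disaggregase, was the 1 member with an unadjusted p under 0.05, with 989.9 and 878 in the gpr1 deletion, against 541 and 547 in wild type (log2 change 0.78 ± 0.21, adjusted p = 0.386). Of 24 antioxidant enzymes the median was 0.11, and PRX1, the mitochondrial peroxiredoxin, read 1260.0 and 1396 in the gpr1 deletion, against 679 and 672 in wild type (log2 change 0.97 ± 0.21, adjusted p = 0.207). CTT1, cytosolic catalase, read 115 and 119 in the gpr1 deletion, against 134 and 67 in wild type, where the groups overlap.

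Reserve carbohydrate genes differed by step. Of 16 tested glycogen genes 0 were called, 11 were positive and the median was 0.34, with 0.10 for gpr1 deletion array 1 and 0.60 for array 2 against the wild-type mean, and 0.22 without wild-type array 1. GPH1, glycogen phosphorylase, read 296 and 688 in the gpr1 deletion, against 156 and 72.8 in wild type (log2 change 2.08 ± 0.47, adjusted p = 0.235). PGM2, phosphoglucomutase, read 618 and 679 in the gpr1 deletion, against 358 and 295 in wild type (log2 change 1.00 ± 0.25, adjusted p = 0.29). GSY2, the main glycogen synthase, had a log2 change of 0.77. GPH1, PGM2 and GSY2 were higher on both gpr1 deletion arrays than in wild type. Among 7 trehalose genes TSL1, a regulatory subunit of the synthase complex, read 1558 and 1818 in the gpr1 deletion, against 739.6 and 826 in wild type (log2 change 1.11 ± 0.24, adjusted p = 0.209), while TPS1, the catalytic subunit, read 2881 and 3539 in the gpr1 deletion, against 2913 and 3333 in wild type and overlapped.

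The mitochondrial ribosome translates the few proteins encoded in the mitochondrial genome, and its genes had the largest median among lists with at least 5 tested members. All 66 listed genes were tested and all 66 had a positive change, from 0.04 to 1.58, with a median of 0.47. None was called. The arrays of the groups lay apart, with the gpr1 deletion higher, for 47 genes and lower for 0, and 19 had an unadjusted p under 0.05. The mean log2 normalised intensity over the 66 genes was 10.57 and 10.47 in the gpr1 deletion, against 10.15 and 9.91 in wild type, while over all genes it was 9.78 and 9.78 in the gpr1 deletion, against 9.75 and 9.75 in wild type.

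Both subunits of that ribosome showed the difference. The median was 0.47 over 34 genes of the large subunit and 0.48 over 20 of the small subunit. It was 0.37 against wild-type array 1 and 0.47 against wild-type array 2 for the whole list, so it did not rest on 1 wild-type array. MRPL8, of the large subunit, read 2568 and 3018 in the gpr1 deletion, against 1869.8 and 1617 in wild type (log2 change 0.68 ± 0.21, adjusted p = 0.46). MRPL27, also of the large subunit, read 1620.3 and 1533 in the gpr1 deletion, against 919 and 626 in wild type (log2 change 1.06 ± 0.28, adjusted p = 0.354). RSM7, of the small subunit, read 4644 and 5817 in the gpr1 deletion, against 3338 and 3546 in wild type (log2 change 0.60 ± 0.22). MRPS5 had the largest difference, with 216 and 208 in the gpr1 deletion, against 128 and 39.3 in wild type, where array 2 alone was very low.

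The nuclear genes of the respiratory chain and ATP synthase followed the same sign. Of 36 tested, 35 were positive, 23 lay apart with the gpr1 deletion higher and 0 with it lower, 6 had an unadjusted p under 0.05, none was called, and the median was 0.29. The median was 0.35 over 9 genes of complex III, the cytochrome bc1 complex, 0.25 over 9 of cytochrome oxidase and 0.23 over 14 of ATP synthase. COX5B, the cytochrome oxidase subunit used at low oxygen, read 826 and 722 in the gpr1 deletion, against 588 and 314 in wild type (log2 change 0.84 ± 0.33). QCR10, of complex III, read 5722 and 6013 in the gpr1 deletion, against 4136 and 3966 in wild type (log2 change 0.53 ± 0.18).

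Of 3 further mitochondrial lists, which were added after values were seen, each had a positive median. Factors that assemble the respiratory chain had a median of 0.39, with 32 of 35 positive. Mitochondrial tRNA synthetases and translation factors had 0.31, with 32 of 36 positive. Protein import had 0.14, with 30 of 36 positive. Among the synthetases, NAM2, which charges leucine tRNA and also aids intron splicing, read 196 and 264 in the gpr1 deletion, against 134 and 27.3 in wild type (log2 change 1.91 ± 0.67), with wild-type array 2 far below the others.

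In the citric acid cycle 17 of 22 tested genes were positive, 0 were called, and the median was 0.21, which was 0.32 with gpr1 deletion array 1 left out, 0.09 with array 2, 0.06 with wild-type array 1 and 0.34 with wild-type array 2. MDH1, mitochondrial malate dehydrogenase, read 13542 and 13948 in the gpr1 deletion, against 8179.6 and 10667 in wild type (log2 change 0.56 ± 0.22). Transcripts of the mitochondrial genome itself could be tested for 2 of 28 probe sets. OLI1, a subunit of the ATP synthase rotor, read 5745 and 4467 in the gpr1 deletion, against 5263 and 6.67 in wild type. Its readings on the gpr1 deletion arrays and on wild-type array 1 were alike, and the low value was on wild-type array 2, the array with the SPT15 ratio of 10.3. Whether RNA quality has a part in the mitochondrial differences was not tested.

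Genes for the use of sugars and other carbon sources had changes of both signs. Among 14 tested hexose transporters, HXT3, a low-affinity carrier, read 18055 and 15272 in the gpr1 deletion, against 22715 and 24519 in wild type (log2 change -0.51 ± 0.19), and the high-affinity carrier HXT6 read 17109 and 14530.2 in the gpr1 deletion, against 10002 and 11971 in wild type (log2 change 0.53 ± 0.21). HXT6 and HXT7 are near-identical, so their readings cannot be separated. HXK1, the hexokinase that is induced when glucose is low, read 3770.3 and 5389 in the gpr1 deletion, against 1749 and 2731 in wild type (log2 change 1.04 ± 0.29, adjusted p = 0.399), and HXK2, the hexokinase of growth on glucose, read 11249 and 9026 in the gpr1 deletion, against 14049 and 11690.4 in wild type (log2 change -0.35 ± 0.20). None of these passed.

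Of 26 tested genes for growth on other carbon sources 0 were called, 14 were positive and the median was 0.07, which was 0.20 and 0.26 without wild-type array 1 or 2. MPC3, the mitochondrial pyruvate carrier subunit of respiratory growth, read 115 and 154 in the gpr1 deletion, against 32.6 and 29.3 in wild type (log2 change 2.10 ± 0.43, adjusted p = 0.178). ALD4, mitochondrial aldehyde dehydrogenase, read 2083 and 2240.3 in the gpr1 deletion, against 1005 and 919 in wild type (log2 change 1.17 ± 0.20, adjusted p = 0.0871). MDH2, the malate dehydrogenase of gluconeogenesis, had a log2 change of 0.95, and CYB2, lactate dehydrogenase of the mitochondrion, had a log2 change of 0.94. ADH2, the alcohol dehydrogenase that uses ethanol, read 462 and 515 in the gpr1 deletion, against 789 and 532 in wild type (log2 change -0.41 ± 0.27), so not every gene of the list read higher. ADR1, an activator of such genes, read 194 and 179 in the gpr1 deletion, against 61.7 and 123 in wild type (log2 change 1.09 ± 0.45, adjusted p = 0.708).

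Glycolysis and fermentation had a median of -0.06 over 24 genes. Where arrays lay apart 6 were lower (25%) and 1 was higher (4.17%), against 14.3% and 17.6% of all genes. The probe set of TDH3, a glyceraldehyde-phosphate dehydrogenase, is not informative, since it read 0.0917 and 8863 in the gpr1 deletion, against 0.183 and 3.47 in wild type. Among 10 glycerol genes GUT2, the mitochondrial glycerol-phosphate dehydrogenase, had a log2 change of 0.85 and GCY1, a glycerol dehydrogenase, 1.02, while DAK2, a dihydroxyacetone kinase, had a log2 change of -1.19.

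**Figure D4:**
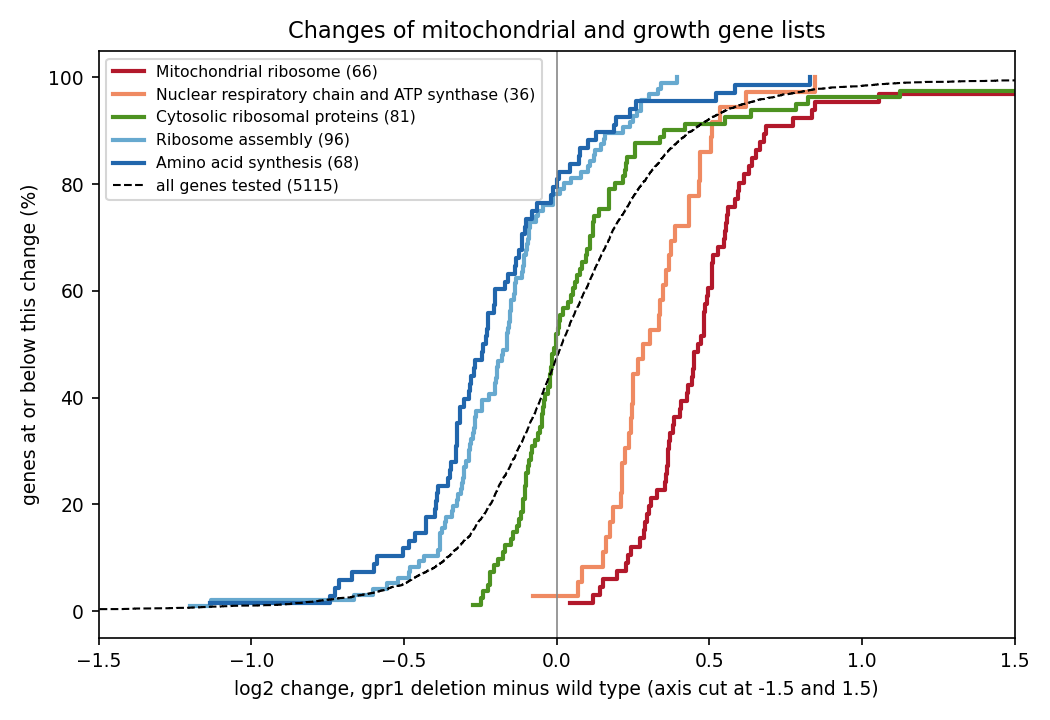
Cumulative share of genes (%) at or below each log2 change, gpr1 deletion minus wild type, for 5 lists and for all genes tested (dashed). The curve of the mitochondrial ribosome lies wholly to the right of 0, those of ribosome assembly and amino acid synthesis cross 0 near the 80% line, and that of cytosolic ribosomal proteins crosses it near the middle.

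Genes of cytosolic ribosome synthesis read slightly lower. Of 96 ribosome assembly genes 75 were negative, 26 lay apart with the gpr1 deletion lower and 4 with it higher, and the median was -0.16. It was -0.28 without gpr1 deletion array 1 and -0.08 without array 2. None was called and 0 had an unadjusted p under 0.05. NOP7, needed for the large subunit, read 379.8 and 385 in the gpr1 deletion, against 496 and 738 in wild type (log2 change -0.66 ± 0.32). RPA190, the largest subunit of RNA polymerase I, read 2397 and 1612 in the gpr1 deletion, against 4338 and 2712 in wild type (log2 change -0.80 ± 0.29), and RRN7, a factor of the same polymerase, had a log2 change of 1.05. Of 138 genes listed as cytosolic ribosomal proteins 81 were tested by a probe set annotated to 1 gene, with a median of 0.00 and 39 positive. The list includes RPP1, a subunit of RNase P and not a ribosomal protein. Most of the listed genes are members of near-identical pairs whose readings cannot be kept apart. The difference in median between the mitochondrial and the cytosolic ribosome was not tested.

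Amino acid synthesis read lower. Of 68 tested genes 54 were negative, 24 lay apart with the gpr1 deletion lower and 4 with it higher, 7 had an unadjusted p under 0.05 and were lower, none was called, and the median was -0.24, which was -0.12 without wild-type array 2. By pathway the median was -0.42 over 8 arginine genes, -0.37 over 8 lysine genes, all 8 of them negative, -0.30 over 6 histidine genes, -0.22 over 13 aromatic genes and -0.20 over 10 genes of leucine, isoleucine and valine, of which 4 were positive. HIS4, an enzyme of histidine synthesis, read 3680.3 and 4309 in the gpr1 deletion, against 6661 and 11510.2 in wild type (log2 change -1.14 ± 0.31, adjusted p = 0.363). LYS9, saccharopine dehydrogenase of lysine synthesis, read 971 and 889.6 in the gpr1 deletion, against 1503 and 1544 in wild type (log2 change -0.71 ± 0.23, adjusted p = 0.536). ARG1, argininosuccinate synthase, read 1383 and 1931 in the gpr1 deletion, against 2415 and 2797 in wild type (log2 change -0.67 ± 0.23). Each of these was lower on both gpr1 deletion arrays than in wild type. GCN4, the activator of these genes, read 12851 and 12739.7 in the gpr1 deletion, against 10970.4 and 10427 in wild type (log2 change 0.26 ± 0.20). Its activity is known to be set mostly by translation of its mRNA, which arrays do not read.

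Sulfate and methionine genes had a median of -0.14 over 29, and purine synthesis one of -0.15 over 16, with none called. Without wild-type array 2 they were -0.07 and -0.03, and without wild-type array 1 the purine median was -0.28. STR3, a cystathionine lyase, had a log2 change of -0.90, and ADE12, adenylosuccinate synthase, had a log2 change of -0.47.

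Genes of the cell cycle bear on the size question that the title names. Of 18 tested genes listed as G1 and S cyclins and their partners, 14 were positive, 0 were called and the median was 0.29. An unadjusted p under 0.05 was reached by 4 of them, all higher. The list also holds the mitotic cyclins CLB1, CLB2, CLB3 and CLB4, the further cyclins PCL5, PCL6 and PCL7, and the inhibitors SIC1 and FAR1. Its median is therefore not of G1 and S cyclins alone. PCL1, a G1 cyclin of the kinase Pho85, read 336 and 396 in the gpr1 deletion, against 109 and 196 in wild type (log2 change 1.32 ± 0.34, adjusted p = 0.32). PCL2, its paralogue, read 266 and 309.6 in the gpr1 deletion, against 161 and 152 in wild type (log2 change 0.87 ± 0.31). CLN1 had a log2 change of 0.58 and CLN2 0.28, the G1 cyclins that drive budding, and CLN3, the upstream cyclin that sets the size at Start, read 1899 and 2397 in the gpr1 deletion, against 1896 and 2094 in wild type, where the groups overlap. WHI5, the repressor that Cln3 inactivates, had a log2 change of 0.08. Of 26 tested Start and size regulators the median was 0.03 and 0 had an unadjusted p under 0.05.

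Genes transcribed at the G1 to S transition had a median of 0.12 over 52, with 33 positive. The arrays lay apart with the gpr1 deletion higher for 12 of them (23.1%), near the 17.6% of all genes. The median was 0.01 without wild-type array 1, 0.21 without wild-type array 2 and 0.07 without gpr1 deletion array 1. RNR1, ribonucleotide reductase, read 3412 and 3918 in the gpr1 deletion, against 2258 and 2739.7 in wild type (log2 change 0.56 ± 0.21). HO, the mating-type endonuclease, read 1062 and 965 in the gpr1 deletion, against 476 and 544 in wild type (log2 change 0.99 ± 0.24, adjusted p = 0.264). HCM1, a forkhead factor of S phase, had a log2 change of 0.85, and YHP1, the partner repressor of Yox1, had a log2 change of 0.46. Of 18 genes of daughter cell separation 15 were positive, 8 lay apart and higher (44.4%), and 0 lay apart and lower. SCW11, a glucanase of the daughter cell, read 3106 and 3015 in the gpr1 deletion, against 1956 and 1962 in wild type (log2 change 0.64 ± 0.20, adjusted p = 0.46).

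Cell wall genes had no common direction, with a median of 0.01 over 68 and 35 positive. WSC4, a sensor-like wall protein, had a log2 change of 1.61 ± 0.35 (adjusted p = 0.212), with both gpr1 deletion arrays above wild type. SLT2, the kinase of the wall integrity pathway, read 2505 and 2908 in the gpr1 deletion, against 3762 and 6044 in wild type (log2 change -0.82 ± 0.29). Of 28 mannosyltransferases KTR2 alone was called, and the median was -0.02.

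Filamentous growth, which needs Gpr1 in diploids of other strains, had a median of -0.03 over 31 tested genes, and 5 had an unadjusted p under 0.05, all lower. MGA1, a factor that promotes filaments, read 23.6 and 62.6 in the gpr1 deletion, against 233 and 248 in wild type (log2 change -2.64 ± 0.58, adjusted p = 0.212). MEP2, the ammonium permease and sensor, read 1047 and 929.8 in the gpr1 deletion, against 2380.1 and 1480.2 in wild type (log2 change -0.93 ± 0.27). The repressors NRG1 and NRG2 had log2 changes of -0.83 and -0.77. All of these were lower on both gpr1 deletion arrays than in wild type.

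Among 33 pheromone response genes PRM7 alone was called, and the median was 0.01. PRM5 read 987 and 981 in the gpr1 deletion, against 1834 and 2519.7 in wild type (log2 change -1.13 ± 0.26), and PRM4 had a log2 change of -0.98. Both are known as induced by pheromone, and PRM5 also by wall stress. STE6, the exporter of a-factor, read 1045 and 1043 in the gpr1 deletion, against 384 and 585 in wild type (log2 change 1.14 ± 0.26, adjusted p = 0.237). It is 1 of 6 tested a-specific genes, all 6 of them positive. In the osmotic stress pathway SSK1, a response regulator, read 214 and 82.2 in the gpr1 deletion, against 533 and 678 in wild type (log2 change -2.18 ± 0.49, adjusted p = 0.231), and SMP1, a factor under the kinase Hog1, had a log2 change of -1.62, while HOG1 itself had a log2 change of 0.03.

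Nutrient genes other than those of carbon included lists for phosphate and for metals. Of 27 phosphate genes PHO5 alone was called, 12 lay apart and lower (44.4%) and 5 apart and higher (18.5%). Over all genes these shares were 14.3% and 17.6%. PHO89, a sodium-coupled phosphate transporter, read 324 and 354 in the gpr1 deletion, against 656 and 1577 in wild type (log2 change -1.58 ± 0.39, adjusted p = 0.29), and PHO84, the main high-affinity transporter, had a log2 change of 0.05. Of 42 iron, copper and zinc genes 29 were positive and the median was 0.22, which was 0.04 without wild-type array 1. Of these genes 0 were called, 14 lay apart and higher (33.3%) and 5 apart and lower (11.9%). FET3, the multicopper oxidase of iron uptake, read 5391 and 5577 in the gpr1 deletion, against 2431 and 3859 in wild type (log2 change 0.84 ± 0.26), and ZRT1, the high-affinity zinc transporter, read 3067 and 2961 in the gpr1 deletion, against 5048 and 4986 in wild type (log2 change -0.74 ± 0.19). Their signs were opposite and neither passed (adjusted p = 0.487 and 0.314).

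Permeases and nitrogen genes had a median of -0.03 over 47. PUT4, the proline permease, read 1539 and 1703 in the gpr1 deletion, against 543 and 141 in wild type (log2 change 2.55 ± 0.53, adjusted p = 0.201), whereas PUT1, proline oxidase, read 473 and 558 in the gpr1 deletion, against 973 and 895 in wild type (log2 change -0.86 ± 0.23, adjusted p = 0.331). The groups do not overlap for either gene. GAP1, the general amino acid permease, had a log2 change of -0.55. Among autophagy and vacuole genes ATG39, a receptor for autophagy of the nucleus, read 125 and 127 in the gpr1 deletion, against 48 and 34 in wild type (log2 change 1.64 ± 0.42), PBI2, an inhibitor of vacuolar proteinase B, had a log2 change of 1.00, and PRB1, that proteinase, had a log2 change of -0.55. FOX2, an enzyme of fatty acid oxidation in peroxisomes, had a log2 change of -1.40.

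Set directly against the gpa2 deletion, the gpr1 deletion differed at 2 of 6956 probe sets (0.0288%), and these were the deleted genes. GPR1 read 4.2 and 3.2 in the gpr1 deletion, against 832 and 964 in the gpa2 deletion, and GPA2 read 1126 and 1408 in the gpr1 deletion, against 14.2 and 21.1 in the gpa2 deletion. An unadjusted p under 0.05 was reached by 163 probe sets (2.34%), and a p that misses the threshold does not show that the strains are alike. HSP26 read 702 and 1217 in the gpr1 deletion, against 2487 and 2778 in the gpa2 deletion, a log2 difference of -1.51 (adjusted p = 0.646). ARI1, an NADPH-dependent aldehyde reductase, read 1666 and 1569 in the gpr1 deletion, against 4141 and 4287 in the gpa2 deletion, a log2 difference of -1.38 (adjusted p = 0.236). The arrays did not overlap for either gene.

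The list medians of the gpr1 deletion minus the gpa2 deletion were -0.42 for small stress proteins, -0.37 for glycogen genes, -0.31 for trehalose genes, 0.26 for ribosome assembly and -0.01 for the mitochondrial ribosome. DDR2 read 8729 and 12573 in the gpr1 deletion, against 15433 and 16574 in the gpa2 deletion, and HSP12 read 15862 and 17660.0 in the gpr1 deletion, against 19487 and 22015 in the gpa2 deletion. Both deletions are set against the same wild-type arrays elsewhere, so likeness of their changes against wild type is not given as a result.

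The median change differed by chromosome. It was 0.14 over 313 genes of chromosome X, 0.10 over 292 of XI, 0.10 over 444 of XII, 0.09 over 77 of I and 0.07 over 407 of XIII, against -0.08 over 463 genes of VII, 227 of VIII and 180 of IX. On chromosome X 34.8% of genes lay apart with the gpr1 deletion higher, against 17.6% of all genes, and on chromosome VII 9.72% did. On chromosome X the sign was the same for each gpr1 deletion array against the wild-type mean, with 0.10 for array 1 and 0.21 for array 2. On chromosome I it was 0.00 for array 1 and 0.21 for array 2. On chromosome IX the median was 0.05 against wild-type array 1 and -0.19 against wild-type array 2. Over the 45 mitochondrial ribosome genes on chromosomes other than X to XIII, the median was 0.43, all 45 were positive and 29 lay apart and higher. With each gene taken relative to the median of its chromosome, an alternative chosen after seeing the data, the median was 0.45 for the mitochondrial ribosome, 0.25 for the respiratory chain, 0.40 for small stress proteins, -0.20 for amino acid synthesis and -0.20 for ribosome assembly.

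**Figure D5:**
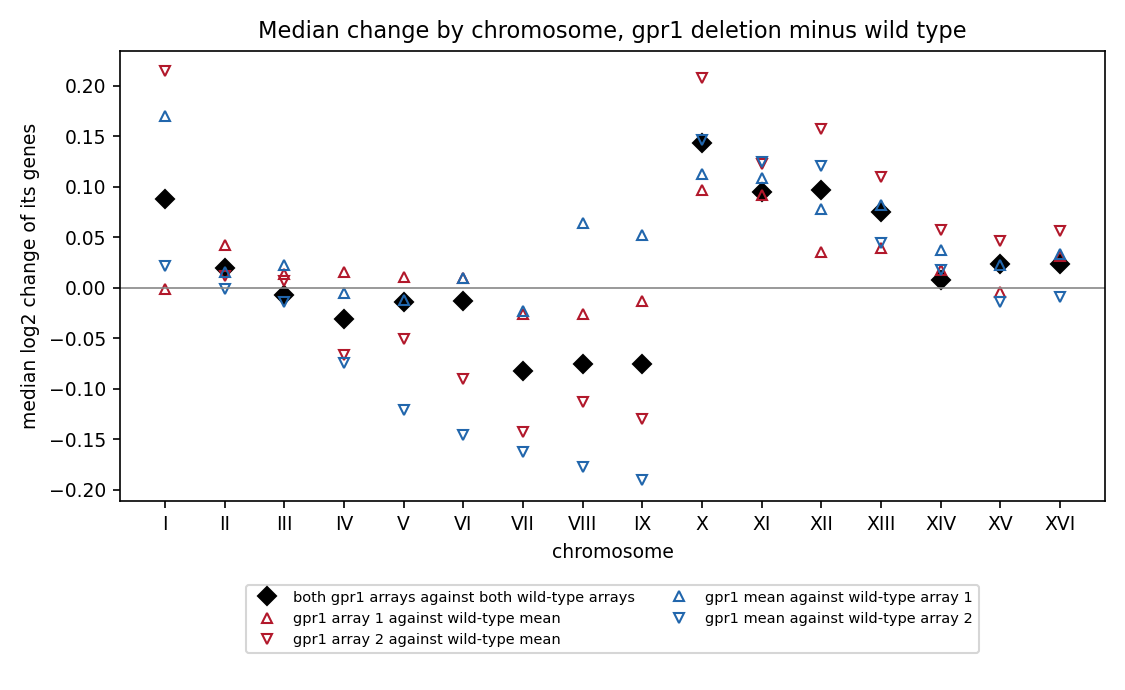
Median log2 change of the genes of each chromosome, gpr1 deletion minus wild type, for both arrays of each strain (black), for each gpr1 deletion array against the wild-type mean (red) and for the gpr1 deletion mean against each wild-type array (blue). Chromosomes X to XIII lie above 0 by all of these measures, while on VII to IX they spread from 0.06 to -0.19.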

How the data were processed

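Total RNA of 6 yeast samples was read on single-colour oligonucleotide arrays, and samples were grouped by their labels, with 2 gpr1 deletion, 2 gpa2 deletion and 2 wild-type arrays. Per the labels and the values, the authors deposited 1 linear intensity per probe set and array. The summary method, any scaling and the genome build have no statement in these sources. Median deposited intensities, leaving out the controls, spanned 2.50-fold between arrays (gpr1 deletion 525.9 and 265.4, gpa2 deletion 225.1 and 237.6, wild type 563.5 and 373.5), so all 6 arrays were quantile normalised. Values were floored at the pooled 10th percentile and log2 was taken. Of 9335 probe sets, 60 controls were left out, as were 2319 whose mean lay below the 25th percentile. Of the 6956 tested, 5650 name 1 gene, 275 several and 1031 none. Symbols were matched by locus for 6504 probe sets through RefSeq's R64 table, which also gave gene order and chromosome, and 0 needed updating.

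Groups were compared with limma 3.58.1 in R 4.3.3 (1 coefficient per group over all 6 arrays, trended moderation, 3 residual degrees of freedom, Benjamini-Hochberg adjustment), and the fit was tested on simulated data. Genes were named by rule: the deleted genes, all calls, the 15 largest rises and falls at an unadjusted p under 0.05 whose arrays do not overlap, first and lowest-p members of each list, 5 neighbours on each side of GPR1, and the 10 lowest p against the gpa2 deletion. Genes outside it are HSP30 and AIM33, chosen after their values were seen. The comparison, members and 50 gene lists were chosen with earlier results of these data known, and 3 mitochondrial lists were added after values were seen. Alternatives were a replicate block, other scalings, floors, filters, moderations and thresholds, only the groups compared, only the brightest probe set, each array left out in turn and, added later, centring on chromosome medians. Precision is limited by the number of arrays. No sequences were used.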

Additional observations from a re-analysis of the deposited data

How the results depend on the processing

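The count of calls in the gpr1 deletion against wild type was 16. It was 33 with a replicate block, 10 with the filter at the 50th percentile, 6 without a trend in the moderation, 8 with only the groups compared and 26 at an adjusted p under 0.1, and leaving out 1 array at a time gave 5 to 53. It was 24 on the values as deposited, 18 with median centring, 18 and 15 with the floor at the 25th or 1st percentile, 13 with no filter, 21 with robust moderation and 19 with the brightest probe sets alone. All 16 remained among the 33 with the block, and of the other named genes YLL053C, SMP1, HSP26, PIB1, FMP33, HXK1 and ALD4 passed there. Same-numbered arrays deviated together, with correlations of 0.20 to 0.40 between groups, but the labels do not say what the numbers share and each group has only 2, so the pairing was not settled. Against the gpa2 deletion the count was 2, and it was 10 on the values as deposited, 5 with no filter, 0 with the filter at the 50th percentile (where GPR1 and GPA2 are left out as dim), 2 with the replicate block and 2 to 5 with 1 array left out.

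Without any 1 array GPR1, HSP12, PRM7 by 6514_at and 3982_at were still called. Each other call was lost without at least 1 array, and those of PHO5, YOR385W, ECM13, DDR2, AQR1 and FKS1 also on the values as deposited. On those values the median change of all probe sets was -0.32. No called value changed sign in these alternatives. The median of the mitochondrial ribosome relative to all genes was 0.42 on the values as deposited. Dim probe sets are less precise: the median SE was 0.41 in the dimmest 25% of those tested and 0.22 in the brightest 25%.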

Other observations

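Beside BSC1, 1 other probe set outside the test because it was dim lay at the floor in one group and above an intensity of 100 in the other. AIM33, a gene of unknown function named for altered inheritance of mitochondria, read 158 and 107 in the gpr1 deletion and 235 and 107 in the gpa2 deletion, against 6.00 and 3.86 in wild type, so that its level in the gpr1 deletion was higher by at least 14.5-fold. This gene was picked for its values and has no test.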
